A study of Mus musculus with 8 samples.

Results

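The regions described here are the distal sites of NFIB alone: stretches of the mouse genome (build mm10) that held a chromatin immunoprecipitation (ChIP-seq) peak of the transcription factor NFIB in both of its libraries, and no peak in any library of its relatives NFIA and NFIX. Peaks of the 6 deposited lists that overlapped by 1 bp or more were merged, which gave 46070 regions. Of these, 26091 held a peak of both NfiB libraries and 4484 of those held no other peak. Regions whose midpoint lay more than 1 kb from every protein-coding transcription start site (TSS) were called distal, and 3556 regions met all conditions. They were thus chosen by the presence and absence of the authors' peak calls in these same libraries, and on position relative to TSSs. They made up 7.72% of all merged regions and 15.0% of the 23664 distal regions with both NfiB peaks. The other 20108 distal NFIB regions held at least 1 peak of NfiA or NfiX and are called shared below, and the 5832 of them with a peak of all 6 libraries are called common.

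NFIB, NFIA and NFIX belong to the nuclear factor I family, which binds DNA as dimers. The preferred site is a palindrome in which TTGGC and its reverse complement GCCAA stand 5 bases apart, and a single arm, a half-site, can be bound more weakly. In the developing cerebellum these factors take part in the differentiation and migration of granule neurons. A ChIP-seq peak marks DNA that was recovered with an antibody more often than its surroundings, and it does not show that a neighbouring gene is regulated.

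The cells were granule neuron progenitors, the dividing precursors of cerebellar granule neurons, isolated from mice at postnatal day 7. NFIB was measured in 1 library from CD1 mice and 1 from mice that the labels call Mixed, a background described as resembling outbred CD1, and NFIA and NFIX were measured in 1 library of each kind as well. No genotype, transgene or treatment is given in the labels, which also do not state whether libraries came from separate animals. Both input samples of the series were left out, as they were not analysed here. The NFIB antibody is given as one from Novus Biologicals in the labels of the libraries and as one from Sigma in the series design, a disagreement that is not settled here. Peak lists carry no expression values, so the identity of the cells could not be checked against marker genes.

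The rule counts absence from a list, and the lists differed in length: 36431 peaks in NfiB CD1 and 33283 in NfiB Mixed, against 16993 and 23541 in NfiA CD1 and Mixed and 7497 and 21443 in NfiX CD1 and Mixed. The median summit held 28 fragments in both NfiB libraries and 21 to 26 in the other 4. When each list, those of NfiB included, was cut to its 7497 strongest peaks by p-value, 141 regions were left. That cut also removed weak NfiB peaks. The number thus cannot separate the length of the other lists from the strength of the NfiB peaks. A region of NFIB alone is one without a deposited NfiA or NfiX peak, and not one shown to lack those factors.

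The DNA under some of these sites could be read, because the summit lay inside an annotated exon. The 2 highest-ranked regions of NFIB alone with an NFI palindrome at the NfiB CD1 summit, among an eligible set of windows outside UTRs, are shown first, and the examples after them were taken from the same set. Capitals mark a palindrome with shortened arms, TGGC and GCCA with 5 bases between them, in plus-strand sequence that runs 50 bases to each side of the summit.

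Coding exon of Prag1, chr8:36100003-36100103: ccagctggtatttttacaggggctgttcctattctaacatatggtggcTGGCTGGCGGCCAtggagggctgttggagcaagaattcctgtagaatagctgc
Exon of Atp6v1a, chr16:44098490-44098590: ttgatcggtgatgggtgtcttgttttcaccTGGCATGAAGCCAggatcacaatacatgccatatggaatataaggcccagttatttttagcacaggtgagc

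Half-sites without a palindrome were more frequent. The 3 highest-ranked summits with the half-site TTGGCA, in capitals here in either orientation, lay in an exon of the noncoding gene Gm44802 inside an intron of Fam155a, in a coding exon of the secreted metalloprotease gene Adamts1 and in the processed pseudogene Gm14913.

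Exon of Gm44802, chr8:9709946-9710046: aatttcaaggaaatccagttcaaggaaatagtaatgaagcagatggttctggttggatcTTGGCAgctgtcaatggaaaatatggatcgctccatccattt
Coding exon of Adamts1, chr16:85798475-85798575: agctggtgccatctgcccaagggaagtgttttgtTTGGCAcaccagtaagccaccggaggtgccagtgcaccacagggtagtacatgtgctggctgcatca
Exon of Gm14913, chrX:117418346-117418446: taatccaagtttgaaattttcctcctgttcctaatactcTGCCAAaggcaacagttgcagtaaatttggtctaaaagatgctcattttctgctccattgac

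Among the high-ranked summits with neither the palindrome nor the half-site were those in the noncoding gene Gm48752 near Mybpc1 and in a coding exon of Tle4, a Groucho family corepressor. The last holds an E-box of the form CAGATG, a sequence bound by basic helix-loop-helix factors, which is in capitals.

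Exon of Gm48752, chr10:88603910-88604010: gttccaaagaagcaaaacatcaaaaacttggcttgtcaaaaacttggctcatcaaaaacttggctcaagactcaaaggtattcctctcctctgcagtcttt
Coding exon of Tle4, chr19:14453682-14453782: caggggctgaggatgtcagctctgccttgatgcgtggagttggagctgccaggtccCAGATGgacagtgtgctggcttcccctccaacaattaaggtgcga

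The folds behind these windows were 7.27 in NfiB CD1 and 3.94 in NfiB Mixed at Prag1, 8.95 and 6.26 at Gm48752, and 5.95 and 9.50 at Tle4. A fold is the authors' own enrichment of fragments at the summit over the local background. The window of Gm48752 held no NFI motif as searched, although TTGGCT recurs in it.

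Regions of NFIB alone were weak NFIB peaks. Their median fold was 4.70 in NfiB CD1 (quartiles 3.92 and 5.72) and 4.37 in NfiB Mixed (3.71 and 5.15), against 7.50 and 6.81 at shared regions and 12.0 and 10.5 at common regions. In the NfiB CD1 list the median region of NFIB alone stood at the 31.9th percentile of fold and in the NfiB Mixed list at the 27.9th. The rule used these peak lists, so strength is given as a description. The fragment numbers behind the folds were 22 in NfiB CD1 and 20 in NfiB Mixed at the median summit of NFIB alone, against 37 and 34 at shared summits. Local background was 3.73 and 3.90 fragments at regions of NFIB alone and 4.06 and 4.14 at shared regions. The median width was 313 bp for merged regions of NFIB alone and 462 bp for shared regions, which are wider in part because they span the peaks of more libraries.

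The libraries of the 2 backgrounds ranked these sites only loosely alike. Fold was higher in NfiB CD1 than in NfiB Mixed at 2204 of 3556 regions of NFIB alone (62.0%) and at 62.8% of shared regions. Across regions, Spearman's rho between the folds of both libraries was 0.46 for NFIB alone and 0.73 for shared regions. This is a description over regions of the same 2 libraries, and folds had a narrower range among regions of NFIB alone (2.16 to 13.5 in NfiB CD1, against 2.19 to 51.7 at shared regions), whose part in the lower rho was not tested. Summits of the 2 libraries lay a median of 37 bp apart at NFIB alone (quartiles 16 and 70 bp), against 27 bp at shared and 19 bp at common regions. Among regions of like strength the gap narrowed: in the lowest of 4 equal groups of distal NFIB regions by mean fold it was 39 bp against 36 bp, and in the third group 27 bp against 26 bp.

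**Figure D1:**
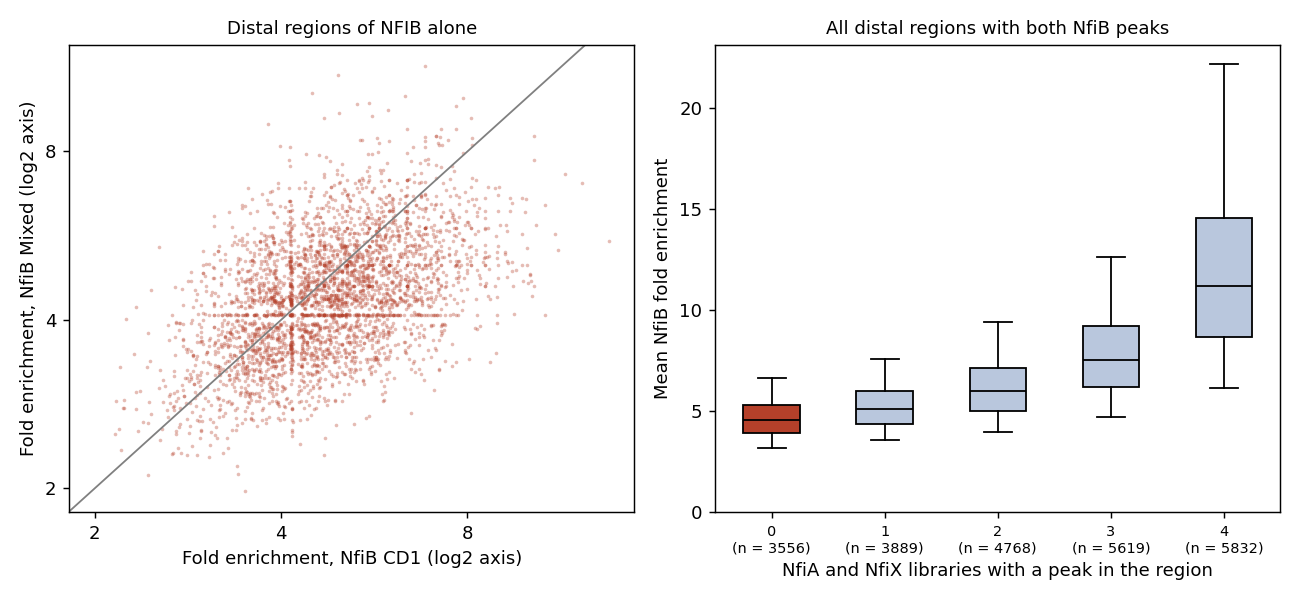
Left, fold enrichment (log2 axes) of each of the 3556 distal regions of NFIB alone in NfiB CD1 and NfiB Mixed, with the line of equal folds. Right, mean NfiB fold (geometric mean of both libraries) of all distal NFIB regions by the number of NfiA and NfiX libraries with a peak there. Boxes are quartiles with the median, and whiskers run from the 5th to the 95th percentile. The box for 0 other libraries, NFIB alone, has the lowest median, 4.56, and the box for all 4 has the highest, 11.2.

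Fold increased step by step with the number of other libraries that had a peak. The median fold in NfiB CD1 was 4.70 with 0 other libraries, 5.34 with 1, 6.03 with 2, 7.86 with 3 and 12.0 with 4, over 3556, 3889, 4768, 5619 and 5832 regions. Regions with a peak of exactly 1 other library are the nearest neighbours of NFIB alone in this order. In 2036 of these 3889 regions (52.4%) the single other peak came from NfiA Mixed, the longest of the other lists, and in 33 (0.849%) from NfiX CD1, the shortest. That peak was itself weak, at a median percentile of 24.0 to 29.8 of its own list. With the distal NFIB regions in 4 groups of equal size by mean NfiB fold, called fold groups 1 (lowest) to 4 below, 40.3% of group 1 were NFIB alone, 16.3% of group 2, 3.40% of group 3 and 0.0507% of group 4 (3 regions). Fold group 1, with mean folds up to 5.04, held 67.1% of all regions of NFIB alone.

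The strength needed for a peak was also set against the other lists. If the fragments and the background of a region of NFIB alone in NfiB CD1 were scaled down by the ratio of the libraries' lowest background, an index of depth, 0.197% of the regions would fall below the weakest p-value in the NfiA Mixed list, 2.81% below that of NfiX Mixed, 4.08% below that of NfiA CD1 and 11.5% below that of NfiX CD1. From NfiB Mixed the shares were 0.141, 4.19, 5.17 and 15.9%. For shared regions the shares from NfiB CD1, in the same order of lists, were lower, at 0.0398, 0.408, 0.666 and 2.21%. The scaled numbers carried no counting error and came from regions chosen for their NfiB peaks, so the shares may be too low. This scaling covers depth as judged from background alone, and antibody efficiency was not measured. Within fold groups, regions of NFIB alone lay in lower local background than shared regions. In NfiB CD1 the medians were 4.54 against 5.01 fragments in fold group 1, 2.63 against 3.82 in group 2 and 1.91 against 3.82 in group 3. Folds were not matched within a group. For a given fold, a lower background means fewer fragments at the summit. The part of depth and of background in the missing NfiA and NfiX peaks was not tested beyond these values.

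Of the 15 regions of NFIB alone with the highest mean percentile over both NfiB lists, 10 were intergenic and 8 lay more than 100 kb from a protein-coding TSS. The first was in an intron of Adam12, a metalloprotease gene (chr7:134171315-134171648), 1.46 kb from a TSS, with folds of 10.3 (NfiB CD1) and 8.54 (NfiB Mixed) and summits 19 bp apart. The next lay in intergenic sequence nearest to Gp2 (chr7:119418647-119418994, folds 11.5 and 7.28), and the third 431 kb from the axon guidance receptor gene Epha5 (chr5:83931143-83931491, folds 12.2 and 7.03). A region 586 kb upstream of Nova1, which encodes a neuronal splicing regulator, had folds of 7.86 and 9.98 (chr12:47405208-47405500). An intronic region of Rgs7, a regulator of G protein signalling, was higher in NfiB Mixed, with folds of 6.82 in NfiB CD1 and 11.4 in NfiB Mixed (chr1:175195817-175196153). A region 18.8 kb upstream of the kainate receptor gene Grik2 went the other way, with folds of 10.7 and 6.41 (chr10:49807234-49807882). The remaining 9 were nearest to 4921530L21Rik, Arhgap15, H2al1j, Il1r1, Phf3, Adgrl4, Stk39, Castor2 and Rsad2, with folds of 6.82 to 12.2 in NfiB CD1 and 6.41 to 11.4 in NfiB Mixed over the 15. Background at these sites was low, 1.35 to 2.63 fragments in NfiB CD1, so that 15 to 38 fragments gave these folds. The weakest regions by q-value were nearest to Tpt1, Agap1 and Usp9x, with −log10 q of 1.43 to 1.51 in the weaker of their libraries.

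Position in the genome was not used by the rule beyond the 1 kb limit. Introns of protein-coding genes held 1673 regions of NFIB alone (47.0%, 95% Wilson interval 45.4 to 48.7), against 44.1% of shared regions, a difference of 2.95 percentage points (95% Newcombe interval 1.18 to 4.73). Intergenic sequence held 1457 (41.0%), against 45.0%, a difference of −4.04 points (−5.79 to −2.28). These intervals cover counting error only and treat regions as independent. Among regions of like strength the differences were smaller: in fold group 1, introns held 47.3% of NFIB alone against 46.9% of shared regions, and intergenic sequence 40.2% against 39.4%. In group 2 introns held 47.3 and 45.7%, and in group 3 43.3 and 44.4%, so the direction was not the same in every group. Introns of noncoding genes held 6.07% against 6.54%. Exons held few regions, with 68 of NFIB alone in coding exons (1.91% against 1.41%), 78 in other exons of protein-coding genes (2.19% against 1.71%) and 64 in exons of noncoding genes (1.80% against 1.23%). At like strength the shares in coding exons were lower for NFIB alone in fold group 1 (2.35% against 2.69%) and group 2 (0.931% against 1.62%) and higher in group 3 (1.49% against 1.28%), and those in other exons of protein-coding genes were lower in all 3 (2.35% against 2.38% in group 1 and 1.49% against 1.66% in group 3). The regions in coding exons were weaker, with median folds of 4.03 and 3.92, than those in introns of protein-coding genes, with 4.69 and 4.37.

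Taken over all strengths, regions of NFIB alone lay closer to genes than shared regions did. The median distance to the nearest protein-coding TSS was 34.6 kb (quartiles 10.6 and 112 kb), against 47.6 kb for shared and 60.6 kb for common regions. More than 100 kb away were 27.4% of NFIB alone and 33.5% of shared regions, a difference of −6.12 points (95% Newcombe interval −7.70 to −4.49). Here too strength entered: in fold group 1 the shares were 22.7 and 23.1%, while in group 2 they were 34.5 and 29.4% and in group 3 47.8 and 34.0%. In groups 2 and 3 NFIB alone was thus the more distant set. Upstream of the nearest TSS lay 46.4% of NFIB alone and 46.1% of shared regions. Just inside the 1 kb limit stood regions of Sema6a, Mecom and Nhlh1, at 1.014, 1.018 and 1.02 kb, and just outside it stood regions of Sgpp2, Tbr1 and Dvl3, at 0.998, 0.997 and 0.991 kb.

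**Figure D2:**
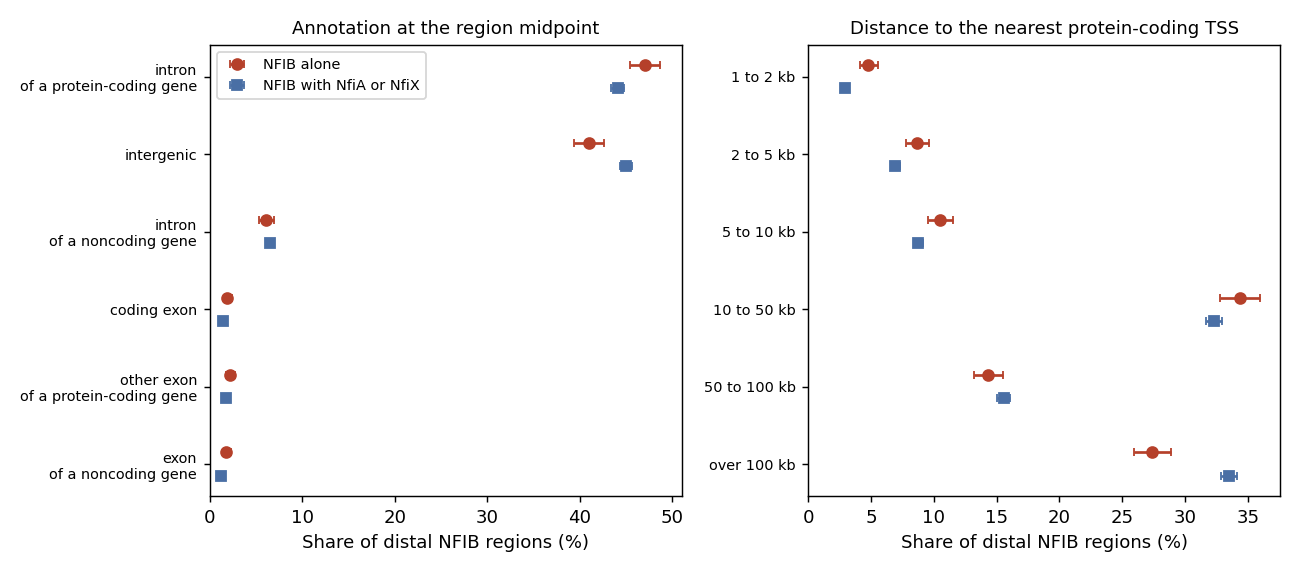
Share (%) of the 3556 distal regions of NFIB alone (circles) and of the 20108 shared distal NFIB regions (squares) by the annotation at the midpoint (left) and by distance to the nearest protein-coding TSS (right). Bars are 95% Wilson intervals. Introns of protein-coding genes held 47.0% against 44.1%, and 27.4% against 33.5% lay over 100 kb from a TSS.

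Sites of the other factors were often nearby. An NfiA or NfiX region lay within 1 kb of 451 regions of NFIB alone (12.7%), against 10.7% of shared regions that had another such region that close, a difference of 1.98 points (95% Newcombe interval 0.836 to 3.19). The direction held in fold group 1, with 14.1 and 10.7%, and not in group 2 (9.62 and 10.5%) or group 3 (9.95 and 10.5%). Within 20 kb the shares were 63.6 and 61.7% over all strengths and 66.2 and 63.3% in group 1. They were 58.5 and 60.0% in group 2 and 57.2 and 60.2% in group 3. The median distance was 11.1 kb against 12.4 kb, with 10.3 and 11.9 kb in group 1, 13.4 and 13.3 kb in group 2 and 15.6 and 13.0 kb in group 3. Another region of NFIB alone lay within 20 kb of 618 regions of NFIB alone (17.4%), against 14.4% of shared regions. The direction held in group 1 (19.2 and 16.6%) and group 2 (14.9 and 13.6%), and not in group 3 (7.46 and 13.9%). Chromosomes differed little: between 13.1% (chromosome 10) and 17.5% (chromosome 11) of the distal NFIB regions of a chromosome were NFIB alone. The X chromosome held 54, and 1 region lay on an unplaced X scaffold to which no protein-coding TSS was matched by sequence name. Its distance to a TSS was thus not known, and it was counted as distal.

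A share of the regions called distal from protein-coding genes lay at starts of noncoding genes. These were 146 regions of NFIB alone within 1 kb of a noncoding TSS (4.11%), against 3.15% of shared regions. The share was higher for NFIB alone in fold group 1 (5.03% against 4.30%) and lower in group 2 (2.38% against 3.17%) and group 3 (1.49% against 2.92%). The annotation gave 59 of these genes as lincRNAs, 17 as antisense genes and 6 as miRNAs. A region 12 bp from the start of Paupar (chr2:105661224-105661486, folds 3.78 and 3.73), a noncoding RNA upstream of Pax6, was one, and a region 0.429 kb from the start of Lockd (chr6:134928266-134929059, folds 4.17 and 3.94), downstream of the cell cycle inhibitor gene Cdkn1b, was another. Both were picked out after their values had been seen. For 25 regions a summit fell in a promoter listed by RefSeq (GRCm38.p6, 250 bases before to 50 after the start). Of these promoters, 9 (36.0%) held CAGATG, against 17.2% of all 32851 listed promoters, 6 (24.0%) held TTGGCA, against 14.1%, and 7 (28.0%) held the Sp and Klf motif GGGCGG, against 35.7%. Promoters at shared regions were not compared, and 25 promoters are few, so these shares are not shown to be particular to NFIB alone. RefSeq lists Gm33099, near Neurod2, as protein-coding and the other genes as lncRNAs, while the 32851 promoters were not limited to lncRNAs. The GC content of the 25 promoters ran from 42.3 to 76.0%. Promoters with 56.0 and 72.3% GC are shown, also picked after their values had been seen. Capitals mark CAGATG in either orientation in the first and GGGCGG in the second.

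4930447F24Rik, chr9:108133468-108133767, plus strand: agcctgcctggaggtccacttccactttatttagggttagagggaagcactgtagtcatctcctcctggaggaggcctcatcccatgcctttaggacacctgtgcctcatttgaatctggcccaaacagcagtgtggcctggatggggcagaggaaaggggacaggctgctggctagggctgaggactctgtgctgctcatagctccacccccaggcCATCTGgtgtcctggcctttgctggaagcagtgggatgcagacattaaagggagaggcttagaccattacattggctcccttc
Chaserr, chr7:73558346-73558645, minus strand: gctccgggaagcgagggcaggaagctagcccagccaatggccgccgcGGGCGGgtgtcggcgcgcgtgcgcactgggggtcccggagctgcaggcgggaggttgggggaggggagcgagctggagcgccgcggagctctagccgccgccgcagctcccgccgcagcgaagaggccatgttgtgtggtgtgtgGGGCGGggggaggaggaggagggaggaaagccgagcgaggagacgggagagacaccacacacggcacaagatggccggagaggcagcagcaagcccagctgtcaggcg

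Chaserr is a noncoding RNA gene upstream of the chromatin remodeller gene Chd2, and its region had folds of 2.68 (NfiB CD1) and 2.80 (NfiB Mixed). The region at 4930447F24Rik, 23.2 kb from the nearest TSS of the presynaptic gene Bsn, had folds of 3.75 and 4.66.

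Of the regions of NFIB alone, 2583 (72.6%) had a protein-coding TSS within 100 kb, and they were assigned to 1930 of the 21992 protein-coding genes (8.78%), or 31.6% of the 6098 genes nearest to any distal NFIB region. A nearest gene is a neighbour and not a shown target. Most of these genes, 1492, had 1 such region, and 24 had 5 or more. Distal NfiA or NfiX regions were also nearest to 1549 of them (80.3%), common regions to 821 (42.5%, against 39.8% of the 6098 genes nearest to any distal NFIB region), and 491 (25.4%) had no distal NFIB region other than those of NFIB alone. A gene nearest to a shared region had a distal NfiA or NfiX region by definition. The matching share of the 6098 genes was not computed, so the 80.3% has no comparison and is not a result about these genes. Larger gene neighbourhoods hold more regions of every kind, and their size was not adjusted for.

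The gene with the most regions of NFIB alone was Nfib itself. Of its 28 distal NFIB regions 9 were NFIB alone (32.1%, beside 15.0% of all distal NFIB regions), and 8 of the 9 lay within the gene. Their folds ran from 2.58 to 5.28 in NfiB CD1 and 2.86 to 4.90 in NfiB Mixed, so none was strong. By mean fold, 2.72 to 4.57, all 9 belonged to fold group 1, in which 40.3% of the distal NFIB regions were NFIB alone. Genes were picked by their number of such regions, so their shares are not independent of that choice. The highest in NfiB CD1 was an intronic region 43.3 kb from the nearest TSS (chr4:82662322-82662613, folds 5.28 and 3.96). The one outside the gene lay 56.9 kb upstream (chr4:82762516-82762798, folds 3.93 and 4.90). Of the other family members Nfia had 3 regions of NFIB alone among 13 distal NFIB regions, and Nfic and Nfix had none.

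Mef2c, which encodes a transcription factor of neuronal differentiation, had 8 regions of NFIB alone among 23 distal NFIB regions. Only 1 of them lay inside Mef2c, and 6 lay 73.2 to 85.7 kb from its nearest TSS, in introns or exons of noncoding genes. For 4 of these 6 the nearest noncoding start was that of C130071C03Rik, the host gene of a copy of the neural miRNA miR-9. The strongest, 0.213 kb from a start of that gene, had folds of 6.22 in NfiB CD1 and 6.58 in NfiB Mixed and was the widest of all 3556, at 1296 bp, with NfiB summits 639 bp apart (chr13:83732131-83733426). The other 7 had folds of 2.23 to 5.84 in NfiB CD1.

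Pax6, the homeodomain factor expressed in granule neuron progenitors, had 6 regions of NFIB alone among 11 distal NFIB regions (54.5%). Beside this and the shares below stand 15.0% of all distal NFIB regions and 40.3% of those in fold group 1. These genes too were picked by their number of such regions. The 6 regions of Pax6 lay from 64.0 kb upstream (chr2:105604682-105605057, folds 6.47 and 3.85) through the Paupar start to introns of the neighbouring gene Elp4. Zfp423, which encodes a zinc finger factor needed for cerebellar development, had 6 of 12, among them 1 at 1.09 kb upstream with folds of 2.92 and 2.80 on a high background of 14.1 and 13.6 fragments. Auts2, a neurodevelopmental gene, had 7 of 28, all intronic, led by chr5:131513728-131514152 with folds of 8.21 and 6.41. Frmd4a had 6 of 19 and Lingo1 6 of 18.

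**Figure D3:**
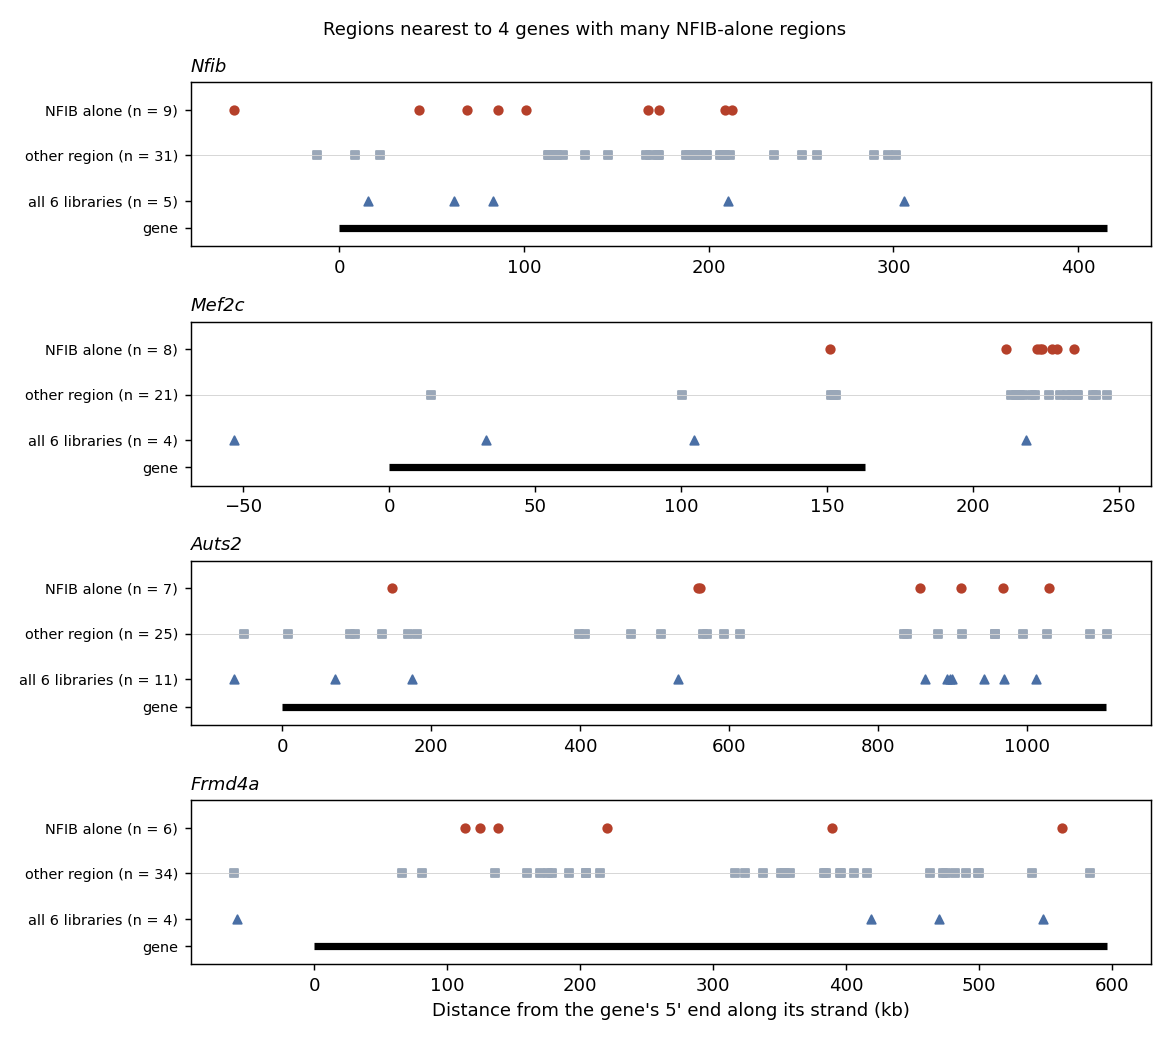
Merged regions nearest to Nfib, Mef2c, Auts2 and Frmd4a by distance from the 5' end of the gene along its strand (kb). Circles are distal regions of NFIB alone, squares are regions with other sets of peaks and triangles are regions with a peak of all 6 libraries, and the black bar is the gene body. The 9 circles of Nfib lie among 5 triangles, and 7 of the 8 circles of Mef2c lie beyond the end of the gene.

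The gene lists gave counts that can be read against 8.78% of all protein-coding genes and 15.0% of all distal NFIB regions. Of the genes nearest to any distal NFIB region, 31.6% had a region of NFIB alone, and 40.3% of the regions in fold group 1 were NFIB alone. The strength of the regions in each list was not adjusted for. Of 13 genes typical of granule neuron progenitors 8 had a region of NFIB alone, and 19 of the list's 52 distal NFIB regions were NFIB alone (36.5%). Pax6 had 6 of the 19, Meis1 had 3, Barhl1, Ccnd2, Gli2 and Sfrp1 had 2 each, and Atoh1, the factor that specifies the lineage, and Zic2 had 1 each. Zic1, Mycn, Gli1, Ptch1 and Ccnd1 had none. The strongest of the 19 lay in an intron of Sfrp1, a secreted Wnt inhibitor gene, with folds of 6.58 and 5.47 (chr8:23435746-23436046). The region of the D-type cyclin gene Ccnd2 had folds of 5.10 and 4.62, and that of Gli2, a Hedgehog pathway effector, 5.86 and 3.96.

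Among 8 genes of maturing granule neurons 4 had a region of NFIB alone, and 7 of 47 distal NFIB regions were NFIB alone (14.9%), near the share of all. They included the adhesion gene Cntn1 (folds 7.76 and 6.63), Nhlh1 (6.27 and 4.33), Grin2c (4.31 and 4.53) and Rbfox3 (3.44 and 4.23). For other cell types of the cerebellum the numbers were small. Bergmann glia and astrocyte genes had 2 of 18 regions, at Sox9 and Aldh1l1, and oligodendrocyte lineage genes 3 of 7, at Pdgfra, Olig1 and Olig2. Purkinje cell genes had 0 of 8, and microglia and vessel genes 0 of 3.

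The lists of neuronal function were close to the share of all distal NFIB regions. Axon guidance genes had 24 of 152 (15.8%) over 14 of 27 genes, cell adhesion genes 26 of 193 (13.5%) over 16 of 28 genes, and neuronal migration genes 22 of 132 (16.7%) over 12 of 21 genes. Cell cycle genes had few distal NFIB regions, 6 of 29 being NFIB alone (20.7%) over 5 of 24 genes. Examples by strength were the semaphorin gene Sema3d (folds 8.24 and 5.69), its relative Sema6a (7.16 and 5.17), the Slit receptor gene Robo1 (7.67 and 5.85), the cadherin gene Cdh4 (5.36 and 8.40), the synaptic adhesion gene Nlgn1 (5.62 and 6.10), the glial-guided migration gene Astn1 (8.92 and 5.17), the chemokine gene Cxcl12 (6.99 and 5.17), and the cell cycle genes E2f3 (7.07 and 5.62) and Mcm2 (5.52 and 4.75). Each pair is NfiB CD1 and then NfiB Mixed.

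The rule did not use the sequence at summits directly. NFIA and NFIX belong to the same family and bind the same NFI motifs, so whether they have a peak can depend on that sequence. The comparisons of NFI motifs are therefore not independent of the rule and are given as a description. Exonic windows reaching 50 bases to each side of the NfiB CD1 summit were available for 192 regions of NFIB alone (5.40% of them) and for 790 shared regions (3.93%), so these results describe exonic sites only. The NFI half-site TTGGCA, on either strand, was in 25 of the 192 windows of NFIB alone (13.0%, 95% Wilson interval 8.98 to 18.5) and in 240 of the 790 shared windows (30.4%, 27.3 to 33.7), with 27.0% over both. The difference was −17.4 points (95% Newcombe interval −22.6 to −11.0). It is known for this window width only, as shared regions were not searched in wider windows. In a logistic regression with mean NfiB fold and the GC content of the window as covariates, the log2 odds ratio of NFIB alone over shared was −1.16 ± 0.35 (SE), with an adjusted p of 0.00401 (n = 982 windows, two-sided Wald test, Benjamini-Hochberg over 8 motifs). Of the 8 motifs fitted, 2 (25.0%) passed 0.05. Regions were treated as independent, so the p-value describes these regions and not replicate libraries.

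By the number of other libraries with a peak, the half-site was in 13.0, 24.2, 31.1, 30.9 and 36.0% of windows for 0, 1, 2, 3 and 4 libraries. Against the regions with exactly 1 other library the log2 odds ratio was −0.95 and did not pass (n = 192 windows of NFIB alone, adjusted p = 0.128, Benjamini-Hochberg over 6 motifs). Within fold group 1, 21 of 148 windows of NFIB alone (14.2%, 9.47 to 20.7) and 46 of 210 shared windows (21.9%, 16.8 to 28.0) held it, and in fold group 2, 4 of 36 (11.1%) and 62 of 226 (27.4%). In exonic windows 1 kb to each side of the summits, which touched no peak, it was in 6.12% of 278 windows for NFIB alone and 5.05% of 1287 for shared regions. These flanks came from all regions of each set, whether or not the summit was exonic, so they are not paired with the summit windows. Exonic summits of NFIB alone held the half-site 2.13 times as often as these flanks (difference 6.91 points, 95% Newcombe interval 1.58 to 12.8). Shared summits held it 6.02 times as often as flanks of shared regions (25.3 points, 21.9 to 28.8).

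The palindrome was rarer still. With full arms, TTGGC and GCCAA, it was in 0 of 192 windows of NFIB alone, which allows a share of up to 1.56%, against 12 of 790 shared windows (1.52%, and 1.22% over both), a difference that was not detectable at this number of windows. With arms shortened to TGGC and GCCA, a form chosen after the data had been seen, it was in 4 windows of NFIB alone (2.08%, 0.813 to 5.23), 65 shared windows (8.23%, 6.51 to 10.4; 7.03% over both) and 41 of the 164 common windows (25.0%). At the NfiB Mixed summit it was in 0 of 197 windows of NFIB alone.

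E-boxes were at the summits as well. CAGATG was in 61 windows of NFIB alone (31.8%, 25.6 to 38.7) and in 198 shared windows (25.1%, 22.2 to 28.2; 26.4% over both). The plain difference was 6.71 points with a 95% Newcombe interval of −0.217 to 14.2, which includes 0. With fold and GC as covariates the log2 odds ratio was 0.97 ± 0.29 (SE; n = 982 windows, adjusted p = 0.00401, logistic regression, Benjamini-Hochberg over 8 motifs), and without covariates it was 0.48 and did not pass (adjusted p = 0.158). Against regions with exactly 1 other library it was 0.36 (n = 192 windows of NFIB alone, adjusted p = 0.428). The call for CAGATG was thus lost in both of these alternatives. With 0, 1, 2, 3 and 4 other libraries that had a peak, CAGATG was in 31.8, 28.9, 18.2, 26.0 and 28.0% of windows, without a steady trend. In the flanks CAGATG was in 8.63% of windows for NFIB alone and 7.85% for shared regions, so that summits of NFIB alone held it 3.68 times as often as flanks and shared summits 3.19 times as often. Windows of NFIB alone with CAGATG had median folds of 4.83 in NfiB CD1 and 4.32 in NfiB Mixed, against 4.13 and 3.92 for those without it, while windows with and without the half-site had 4.36 and 4.30 in NfiB CD1.

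The E-box CAGCTG was in 28 windows of NFIB alone (14.6%) and 178 shared windows (22.5%; 21.0% over both), with a log2 odds ratio of −0.78 ± 0.36 (SE) that did not pass (n = 982 windows, adjusted p = 0.0790, logistic regression). The other 5 motifs fitted, those of Sp and Klf, Zic, Sox, homeodomain and TEAD factors, each had an adjusted p of 0.958 (n = 982 windows). The windows of NFIB alone had a median GC content of 55.4%, against 53.5% in shared windows, and held 3.13 ± 3.16 CpG dinucleotides (SD over 192 windows) against 2.16 ± 2.12 (790 windows). In fold group 1 the means were 3.54 and 2.68, but in group 2 they were 1.83 and 2.27, with a median GC content of 50.5% against 53.5%.

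**Figure D4:**
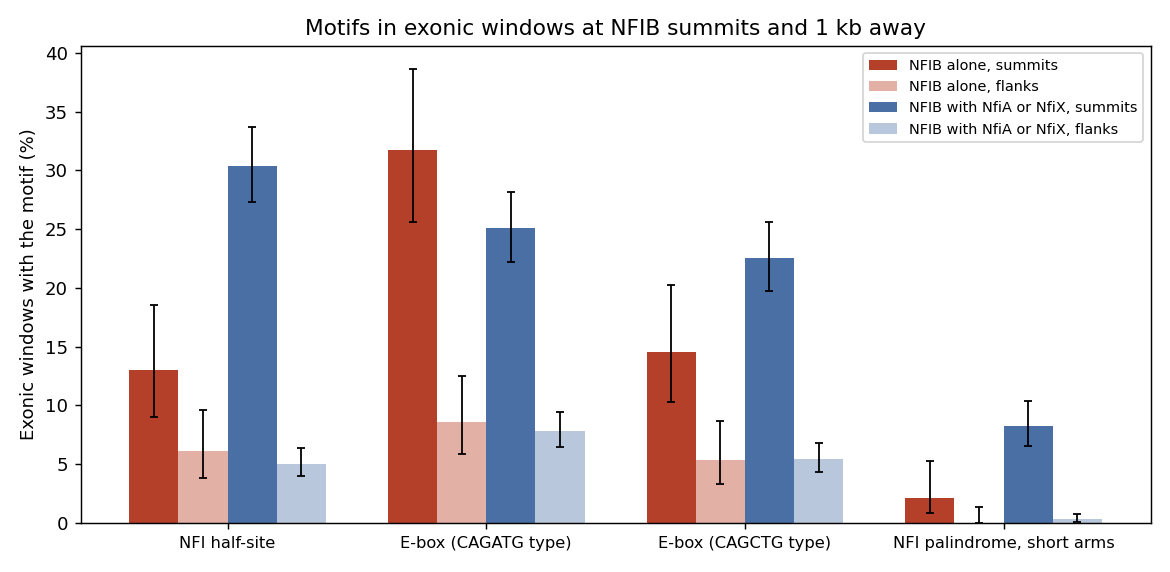
Share (%) of exonic windows that held each motif, for regions of NFIB alone (192 summit and 278 flank windows) and shared distal NFIB regions (790 and 1287). Flank windows lie 1 kb to each side of the summits of all regions of a set, where exonic, and touch no peak. Bars are 95% Wilson intervals. The half-site was in 13.0% of summits of NFIB alone and 30.4% of shared summits, CAGATG in 31.8 and 25.1%, and flanks held 0 to 8.63%.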

How the data were processed

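Peaks of NFIA, NFIB and NFIX ChIP-seq in granule neuron progenitors were taken as the authors deposited them, 1 list per library. The submitters' processing notes name Bowtie2 2.2.6, SAMtools 1.4.1, MACS2 2.1.0 and build mm10. Read filters, the use of the inputs and the peak threshold were not given in the sources used here, nor did file columns record them. The deposited lists give per peak a fold enrichment (a ratio), a −log10 p-value, a −log10 q-value, a score, which was not used, and the distance from the peak start to the summit. The highest q-value in a list was 0.0411 to 0.0492. Read totals were not used here; a fragment number and local background were recovered from each fold and p under a Poisson model (100% of peaks within 0.002 on the −log10 p scale). A region with several peaks of a library took the strongest.

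GENCODE genes on mm10 supplied TSSs and annotation, with every transcript of a protein-coding gene counted, and genes were assigned by the nearest TSS within 100 kb. No genome sequence was used here, so windows reaching 50 bases to each side of a summit were taken from GENCODE transcripts when an exon contained them; 24 motifs, and a shortened palindrome added later, were searched on both strands. Motifs held by at least 5 windows of each set were fitted by logistic regression (statsmodels 0.14.6, Python 3.11.15), a procedure first tested on simulated data. Beside the NFI half-site, the E-boxes and the Sp and Klf motif, whose letters stand above, the fitted motifs were searched as CAGCAGG for Zic factors, as ACAATGG for Sox factors, as TAATTA for homeodomain factors and as GGAATG for TEAD factors. Overlaps between motifs were not removed. Intervals and limits of a count of 0 (3 counts of the total) cover counting error only, and peak fragments are not independent molecules.

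The regions, gene lists and motifs were chosen with earlier results of these data known. Named were the 15 regions with the highest mean percentile of fold over both NfiB lists, the 8 genes with most regions, the 3 regions on each side of the 1 kb limit, up to 4 genes per list by strength and up to 8 sequences, of which a few are not reported here. Alternatives changed the overlap, q-value, list length, TSS rule, libraries, window, covariates and comparison set.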

Additional observations from a re-analysis of the deposited data

How the results depend on the processing

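Of 77 alternative values, 55 kept their direction and their side of the threshold or, where there was no test, stayed within the counting interval or within 1.5 times the count; 16 moved further, 5 no longer passed the test and 1 changed sign. The number of distal regions of NFIB alone was 3079 to 3649 under other rules for overlap, q-value and TSS. The q-value rule, −log10 q of 5 or more, gave 3284 regions and removed peaks from all 6 lists, those of NfiA and NfiX included. Among the 3556 regions the first quartile of −log10 q in NfiB Mixed was 4.87. The 3284 thus include regions outside the 3556, so a like count is not a like set. The number was 141 with lists of equal length, a setting that also shortened both NfiB lists. Leaving out 1 library gave 3589 to 10112: 7479 without NfiB CD1 and 10112 without NfiB Mixed, whose peak was then not required, 5597 without NfiA Mixed, and 3589 to 4585 without any one of the others. With a TSS limit of 5 kb introns held 44.4%, intergenic sequence 44.1% and exons 4.77%, and without 1 NfiB library these shares were 45.6 to 46.4%, 41.1 to 42.9% and 5.20 to 6.23%. The median distance to an NfiA or NfiX region was 14.0 kb with −log10 q of 5 or more and 11.6 to 13.2 kb without 1 NfiB library, and the summit gap was 34 bp with that q. In windows of 100 bases to each side 27.3% of 165 windows of NFIB alone held the half-site, so its share depends on window width. Shared regions were not searched at that width. At the NfiB Mixed summit 14.7% of windows of NFIB alone held it. The half-site log2 odds ratio did not pass against regions with 1 other library (n = 192 windows of NFIB alone, −0.95, adjusted p = 0.128, logistic regression) or in coding exons only (n = 51, −1.12, adjusted p = 0.272), and was −2.42 against common regions (adjusted p = 0.000563). CAGATG did not pass without covariates (0.48, adjusted p = 0.158), against 1 other library (0.36, adjusted p = 0.428) or in coding exons (n = 51, 0.94, adjusted p = 0.272). Against common regions CAGATG was 2.43 (n = 192, adjusted p = 0.000563, logistic regression), although the plain shares were 31.8 and 28.0%. CAGCTG changed sign against common regions (n = 192, 0.69, adjusted p = 0.531). Folds of these 2 sets overlapped little. Fold group 1 held 148 of the 192 windows of NFIB alone, while fold group 2 held 16 of the 164 common windows. The ratios against common regions thus lean on the fitted effect of fold and do not compare regions of like strength. By gene body rather than nearest TSS, Mef2c and Pax6 had 1 region each. The comparisons with 1 other library and in coding exons were chosen after seeing the data. Apart from coding exons, which hold fewer windows, the causes were not tested. No paired analysis was possible because the results are counts and shares of regions that come from no test over libraries, and the summit gap has no value with 1 NfiB library. The number of exonic windows limits every motif result.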
